A study of Mus musculus with 12 samples.

Results

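The comparison set all 6 libraries from fetal membranes of mice lacking biglycan and decorin (double knockout, DKO) against all 6 libraries from wild-type (WT) membranes, whatever their stage. The 12 libraries are the whole series. They form 4 groups of 3, E12 DKO, E18 DKO, E12 WT and E18 WT, taken at embryonic day 12 or 18. The DKO mice are labelled with a mixed background, C3H and C57BL/6, and the WT mice with C3H alone, so genotype and strain background cannot be told apart by design. The labels give neither the design of the targeted alleles nor their generation count on either background. Nothing in them says that the 3 libraries of a group came from separate dams or litters, so the spread between them may be partly technical. All genes of the count table were read, and the members described here are those whose counts per 1000000 counts (CPM) did not overlap between the 6 DKO and the 6 WT libraries.

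Biglycan (Bgn, on the X chromosome) and decorin (Dcn, an autosomal gene) are small leucine-rich proteoglycans. Their core proteins bind fibrillar collagen and help set fibril diameter, and both bind transforming growth factor beta. In fetal membranes they belong to the collagen-rich layer that gives the sac its strength. A knockout line made by gene targeting carries DNA of the embryonic stem cell strain around the targeted gene. A line kept on a mixed background also segregates alleles of both parent strains elsewhere in the genome, which is why genes near the targets and genes known to differ between inbred strains are described below.

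Total counts were 19967593 to 33065424 per library. Some libraries stood apart from their labelled group. The embryonic share of beta-globin counts (Hbb-y and Hbb-bh1 over those plus Hbb-bs and Hbb-bt) ranged from 82.3% to 85.1% among E12 DKO libraries, and from 1.33% to 2.67% among E18 DKO libraries. It was 14.8%, 95.1% and 97.1% in E12 WT 1, 2 and 3, and 74.8% to 87.8% in the libraries labelled E18 WT. The exact binomial 95% intervals of these shares were at most 1.04 percentage points wide, which covers counting error only. E12 WT 1 and the 3 libraries labelled E18 WT therefore went against the stage on their labels in this measure. Mitochondrial genes held 21.2% of the counts of E12 WT 3 and 3.58% to 7.78% in the other 11 libraries. Y-linked genes summed to 143 to 171 CPM in 3 DKO libraries and at most 0.49 CPM in the other 3. They summed to 133 to 305 CPM in 4 WT libraries and at most 1.36 CPM in the other 2.

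With labelled stage as a covariate, 5 of 18153 tested genes passed an adjusted p of 0.05 in edgeR's quasi-likelihood test, a background of 0.0275%. The 4 genes that fell in DKO membranes included Dcn, Bgn and the palmitoyltransferase gene Zdhhc9. The unclassified transcript Gm19439 was the 1 gene that rose, and it passed the expression filter only through its E18 DKO libraries. At an unadjusted p under 0.05 there were 2249 genes. All 5 called genes were also among the 81 genes with no overlap in CPM, which make up 0.446% of the tested genes. Of these 81, 43 (0.237% of all tested) were higher in every DKO library than in any WT library, and 38 (0.209%) were lower. Leaving out E12 WT 1 raised the calls to 2473, leaving out any 1 E18 DKO library, E18 WT 1 or E18 WT 3 left 3, and leaving out any other library gave 4 to 6. The genes without overlap numbered 758 without E12 WT 1 and 92 to 144 without any other single library. Without E12 DKO 1, 2 or 3, E18 DKO 3 or E18 WT 2 they numbered 132, 128, 135, 144 and 123. Non-overlap was read directly from the values, so it is given as a description without a test.

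The targeted genes were separated furthest. Dcn (chromosome 10, 97479500 to 97518162, GRCm38, plus strand) stood at 5.92, 8.44 and 6.95 CPM in the E12 DKO libraries and 4.67, 4.78 and 6.21 CPM in the E18 DKO libraries. Its WT values were 762, 235 and 325 CPM for E12 and 198, 353 and 978 CPM for the libraries labelled E18 WT. The lowest WT library therefore lay far above the highest DKO library, by 4.53 on the log2 scale after adding 0.1 CPM to both. The fitted log2 fold change was -6.28 ± 0.49 (SE, 6 against 6 libraries; adjusted p = 0.000401). The mean was 6.16 ± 1.42 CPM in DKO and 475 ± 318 CPM in WT (SD, n = 6 each), so DKO kept 1.3% of the WT mean. Each DKO library held 85 to 251 Dcn counts.

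Bgn (X chromosome, 73483602 to 73495933, plus strand) stood at 16.4, 16.2 and 14.3 CPM in the E12 DKO libraries and 25.1, 23.9 and 24.6 CPM in the E18 DKO libraries. Its WT values were 686, 270 and 357 CPM for E12 and 239, 223 and 381 CPM for the libraries labelled E18 WT. Its log2 fold change was -4.16 ± 0.34 (SE, 6 against 6 libraries; adjusted p = 0.000401), and DKO kept 5.59% of the WT mean, with 452 to 560 counts per DKO library. The 2 DKO stages did not overlap for Bgn, E18 DKO being the higher. The difference between DKO and WT itself differed between the labelled stages for Bgn, by 1.29 ± 0.44 on the log2 scale (E18 minus E12, SE; adjusted p = 0.0362), being smaller at E18. Which exons the residual reads of either gene came from was not analysed here. For both genes the call held under every alternative fit that was run.

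Zdhhc9 encodes an enzyme that attaches palmitate to proteins such as Ras. It lies on the X chromosome (48171969 to 48208878, minus strand), 25.3 Mb from Bgn. Its values were 47.3, 54.0 and 55.0 CPM in the E12 DKO libraries and 18.2, 18.1 and 23.5 CPM in the E18 DKO libraries. They were 186, 152 and 117 CPM in the E12 WT libraries and 155, 154 and 103 CPM in those labelled E18 WT. The 3 E18 DKO libraries were the lowest and no DKO library reached WT. The groups were separated by 0.90 on the log2 scale, the third largest separation among the genes lower in DKO. The log2 fold change was -2.16 ± 0.25 (SE, 6 against 6 libraries; adjusted p = 0.0108). Its E12 value was -1.54 ± 0.22 (adjusted p = 0.0255), its E18 value -2.78 ± 0.23 (adjusted p = 5.51e-05), and the 2 differed by -1.23 ± 0.30 (adjusted p = 0.00831, edgeR). Leaving out any 1 of the E18 DKO libraries gave adjusted p values of 0.0528, 0.0539 and 0.0777, which missed the threshold. The call was also lost with library size alone (0.108), without the stage covariate (0.216), with the embryonic globin share as covariate (0.0676), with a replicate block (0.0746), without the libraries labelled E18 WT (0.0622) and against a 2-fold threshold (0.232).

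Gm19439 is an unclassified transcript on chromosome 3 (88030878 to 88033150, plus strand) with few reads. It had 5, 7 and 7 counts in the E12 DKO libraries and 31, 105 and 16 in the E18 DKO libraries, against 0, 0 and 0 in the E12 WT libraries and 1, 3 and 1 in those labelled E18 WT. The 6 DKO libraries together held 171 counts and the 6 WT libraries 5. The adjusted p was 0.0108, and it missed the threshold without E18 WT 1 (0.0841) or without E18 WT 3 (0.083). It also missed it with limma voom (0.115), without the stage covariate (0.361), with the embryonic globin share as covariate (0.608) and without the libraries labelled E18 WT (0.129). It dropped out of testing under a filter of 1 CPM in 6 libraries and without the E18 DKO libraries. It entered the main test only through the group where it is highest. Its mean of 0.651 CPM over all libraries was below the 1 CPM asked of genes named by separation, and no fold is given because most WT libraries were at or near 0.

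**Figure D1:**
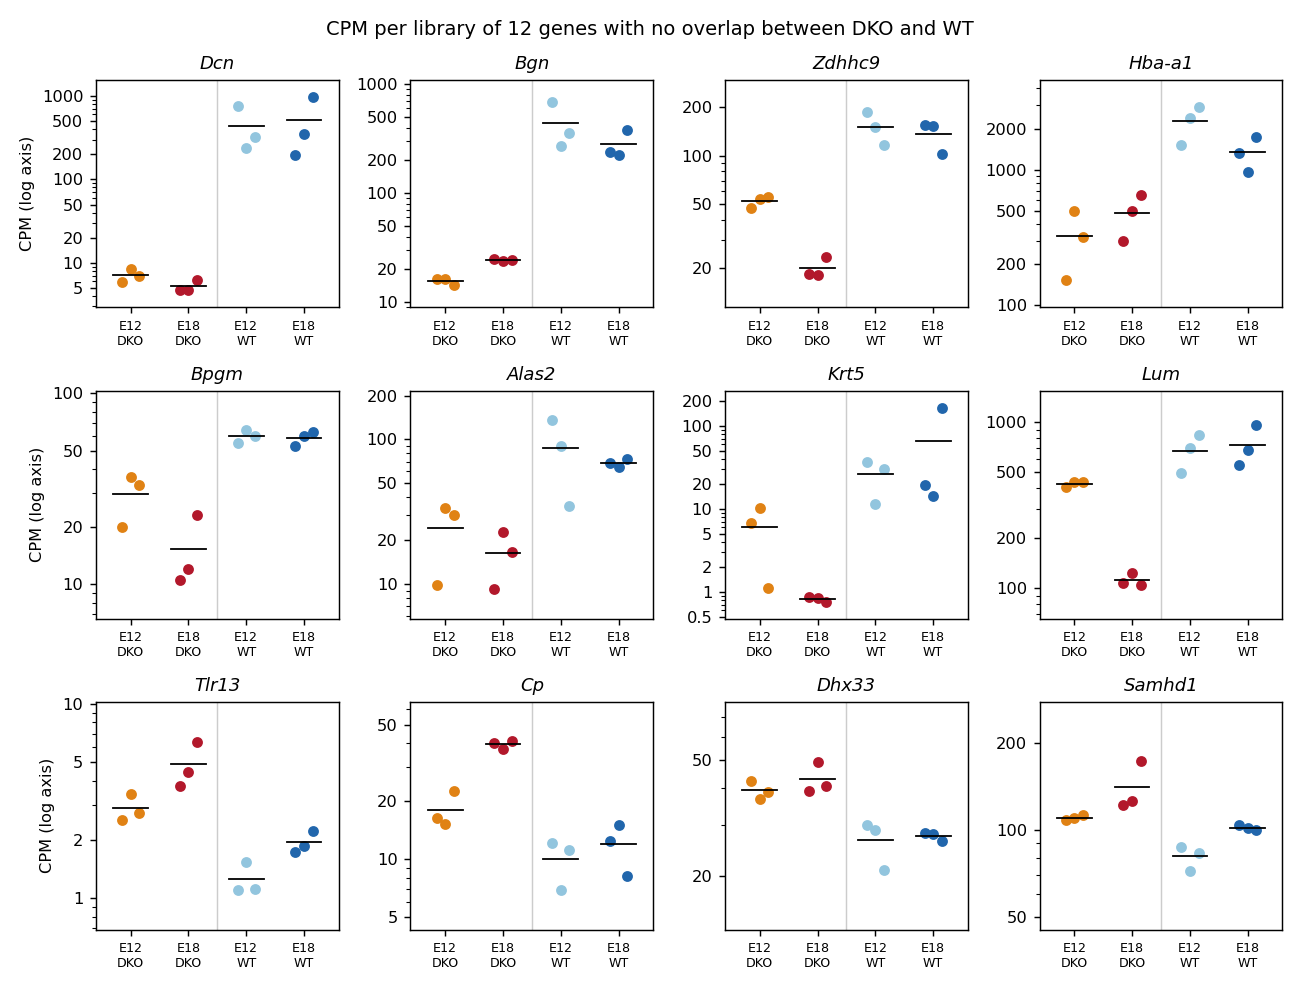
Each panel shows 1 gene with CPM on a log axis for the 3 libraries of E12 DKO, E18 DKO, E12 WT and E18 WT (points) and their mean (black line). The 6 DKO points lie on one side of all 6 WT points in every panel, by a wide gap for Dcn and Bgn and by a narrow one for Samhd1 and Cp.

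The remaining genes lower in DKO included several of red blood cells. Alpha-globin (Hba-a1, chromosome 11) had 154, 499 and 318 CPM in the E12 DKO libraries and 297, 494 and 648 CPM in the E18 DKO libraries. It had 1530, 2400 and 2890 CPM in the E12 WT libraries and 1320, 967 and 1750 CPM in those labelled E18 WT. Its near-identical copy Hba-a2 can take or lose reads, so its level is uncertain. Bpgm, which makes the 2,3-bisphosphoglycerate that tunes oxygen release, ranged from 10.6 to 36.6 CPM in DKO libraries and from 53.0 to 64.3 CPM in WT libraries. Alas2, the erythroid enzyme of the first step of haem synthesis, ranged from 9.23 to 33.4 CPM in DKO and from 34.6 to 135 CPM in WT. Hba-a1, Bpgm and Alas2 did not pass the test (adjusted p of 0.172 for Hba-a1 and Bpgm and 0.212 for Alas2). All 3 passed with DESeq2 (adjusted p of at most 0.000379), when the within-stage differences were averaged (at most 0.0131) and in edgeR without E12 WT 1 (at most 0.019). Those fits called 422, 1882 and 2473 genes in all. In the order Hba-a1, Bpgm and Alas2, the genes missed the threshold with limma voom (0.122, 0.122 and 0.158). They also missed it with the embryonic globin share as covariate (0.258, 0.316 and 0.354) and without any other single library. Of the 12 tested genes of a definitive erythroid list, 12 had a negative fold change, 1 was called and 2 did not overlap, Alas2 among them. Over all tested genes, 9673 of 18153 had a negative fold change, 0.0275% were called and 0.446% did not overlap. The list's median log2 fold change was -2.65, against -0.04 over all tested genes.

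The summed level of that list was 20.3 to 171 CPM in DKO libraries and 173 to 466 CPM in WT libraries, so the sums did not overlap either, by a narrow gap. The summed primitive erythroid list was 17.3 to 2960 CPM in DKO and 1010 to 13300 CPM in WT and did overlap. No list gene tells blood left in the dissected tissue apart from blood of the tissue's own vessels, and in bulk tissue fewer red cells and less RNA per cell cannot be told apart. Summed endothelial markers were 270 to 585 CPM in DKO and 257 to 445 CPM in WT. The part of red cell content in the erythroid differences was not tested.

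Erythroid genes are textbook targets of GATA1, which binds a GATA core. The 250 bases before the RefSeq start were searched for TGATAA and AGATAA on both strands. Of the 3 red cell genes above, 3 had an entry in the promoter table and 2 of these held a match, whereas 16.6% of all 32851 promoter entries did. Among the 38 genes lower in DKO, 3 of 23 with an entry held one, and among the 43 genes higher in DKO, 7 of 31 did. A match describes the letters and says nothing of binding. The promoters with a match are shown 5′ to 3′ (RefSeq, GRCm38.p6) with the match in capitals. Alas2 is on the plus strand at chrX:150547167-150547416, and its match is read as TTATCT, the reverse complement of AGATAA, 86 to 81 bases before the start. Hba-a1 is on the plus strand at chr11:32283422-32283671, with its match 183 to 178 bases before the start.
Alas2: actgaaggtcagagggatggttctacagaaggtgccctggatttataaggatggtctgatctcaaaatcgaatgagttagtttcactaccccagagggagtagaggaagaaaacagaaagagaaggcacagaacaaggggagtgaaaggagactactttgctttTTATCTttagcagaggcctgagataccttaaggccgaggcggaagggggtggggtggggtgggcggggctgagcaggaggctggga
Hba-a1: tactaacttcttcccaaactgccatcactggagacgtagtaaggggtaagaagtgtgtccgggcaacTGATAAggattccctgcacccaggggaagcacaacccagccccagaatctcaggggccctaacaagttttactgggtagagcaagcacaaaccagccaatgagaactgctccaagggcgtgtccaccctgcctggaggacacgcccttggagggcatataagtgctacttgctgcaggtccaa

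Other genes lower in all 6 DKO libraries included genes of matrix and epithelium. Lumican (Lum), another small leucine-rich proteoglycan, had 405, 434 and 438 CPM in the E12 DKO libraries and 108, 123 and 105 CPM in the E18 DKO libraries. It had 490, 695 and 833 CPM in the E12 WT libraries and 548, 677 and 962 CPM in those labelled E18 WT. Its E12 DKO libraries came close to WT, whereas its E18 DKO libraries did not, and the difference between stages was -2.04 ± 0.35 on the log2 scale (E18 minus E12, SE; adjusted p = 0.00119, edgeR). Over both stages Lum was not called (log2 fold change -1.68 ± 0.38, adjusted p = 0.329). Keratin 5 (Krt5), of basal epithelial cells, ranged from 0.763 to 10.3 CPM in DKO and from 11.4 to 166 CPM in WT, with its highest value in E18 WT 3. The stage difference for Krt5 was -4.19 ± 1.39 (adjusted p = 0.0317). Summed amnion epithelial markers went the other way at E18. They were 6890, 5650 and 5350 CPM in E18 DKO and 3060, 2500 and 3050 CPM in E18 WT. At E12 they were 2440, 2380 and 2760 CPM in DKO and 5280, 3540 and 3910 CPM in WT. The signalling ligand gene Wnt7a, at 0 to 0.305 CPM in DKO and 0.484 to 2.13 CPM in WT, was near the limit of detection in most DKO libraries.

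Among 14 tested small leucine-rich proteoglycans, Dcn and Bgn were called, Lum did not overlap, and 9 of 14 had a negative fold change (median -0.62). Of 22 fibrillar and associated collagens, none was called and none failed to overlap, although 17 had a negative fold change (median -0.71). Over all tested genes 0.0275% were called and 0.446% did not overlap, so 0 of 22 is not a result about the list. The type I collagen gene Col1a1 ranged from 892 to 6740 CPM in DKO libraries and from 4010 to 11600 CPM in WT libraries. Its lower DKO values were those of E18, at 1360, 892 and 1980 CPM, while E12 DKO stood at 5250, 6740 and 6600 CPM. Among 24 genes of TGF-beta signalling, 17 had a positive fold change and none was called or lacked overlap (median 0.29). At the same shares over all tested genes, 0 of 24 is not a result about this list either. The list's median was -0.25 at E12 and 0.75 at E18, and 15 of the 24 differed between stages, against 41.9% of all tested genes. Its summed CPM were 1550, 1610 and 1850 in E12 DKO 1, 2 and 3, and 2980, 1300 and 1300 in E12 WT 1, 2 and 3. Only E12 WT 1 lay above the E12 DKO libraries, and its part in the E12 median was not tested.

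The 43 genes higher in every DKO library were separated by small gaps. The largest separation was 0.49 on the log2 scale, and none exceeded 0.5, against 8 of the 38 genes lower in DKO. In 32 of the 43 and 14 of the 38 the gap was under 0.1. Tlr13, an endosomal receptor that in mice senses bacterial ribosomal RNA, had 2.53, 3.42 and 2.74 CPM in the E12 DKO libraries and 3.79, 4.44 and 6.37 CPM in the E18 DKO libraries. It had 1.1, 1.53 and 1.12 CPM in the E12 WT libraries and 1.73, 1.85 and 2.22 CPM in those labelled E18 WT. Its log2 fold change was 1.27 ± 0.23 (SE, 6 against 6 libraries; adjusted p = 0.172), and it was 1.20 at E12 and 1.33 at E18. Ikbkb, the kinase that releases NF-kappaB, ranged from 51.2 to 58.2 CPM in DKO and from 32.6 to 48.4 CPM in WT. Samhd1, which degrades deoxynucleotides and restricts viruses, ranged from 108 to 173 CPM in DKO and from 72.5 to 104 CPM in WT. Tyk2, a kinase of interferon receptors, ranged from 27.3 to 34.5 CPM in DKO and from 21.7 to 27.0 CPM in WT. None of the 4 was called, and Samhd1 and Tyk2 lacked overlap in only 2 of the 4 scalings tried. The 4 were chosen after their values were seen and do not describe the 43 as a set. In the order given, they ranked 7, 14, 17 and 33 by separation. Better separated genes included Syt12 (rank 4) and Pkd2l2 (rank 6).

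Among 30 interferon-stimulated genes 30 had a positive fold change (median 0.83), and none was called or lacked overlap. Over all tested genes 0.0275% were called and 0.446% lacked overlap, so 0 of 30 is not a result about the list. The list's median was -0.61 at E12 and 2.15 at E18, so the pooled sign was that of E18. Of the 30, 21 differed between stages, against 41.9% of all tested genes. Its summed CPM were 423, 424 and 491 in E12 DKO 1, 2 and 3, and 863, 353 and 405 in E12 WT 1, 2 and 3. Only E12 WT 1 lay above the E12 DKO libraries, and its part in the E12 median was not tested. Of 22 genes of Toll-like receptor signalling, 20 had a positive fold change (median 0.38) and none was called or lacked overlap. At the shares over all tested genes, that 0 is again not a result about the list. Tlr13 and Ikbkb, which did lack overlap, are not on it. The median of the 22 was -0.15 at E12 and 0.75 at E18, and 9 of the 22 differed between stages. Their summed CPM were 394, 420 and 422 in E12 DKO 1, 2 and 3, and 779, 370 and 376 in E12 WT 1, 2 and 3. Here too only E12 WT 1 lay above E12 DKO. Summed macrophage markers stood at 511 to 521 CPM for E12 DKO and 1030 to 1460 CPM for E18 DKO, against 403 to 727 CPM in all WT libraries. Their part in the values of these lists was not tested.

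Ceruloplasmin (Cp), a copper-carrying ferroxidase, had 16.4, 15.3 and 22.5 CPM in the E12 DKO libraries and 40.3, 37.3 and 40.9 CPM in the E18 DKO libraries. It had 12.2, 6.89 and 11.1 CPM in the E12 WT libraries and 12.5, 15.1 and 8.21 CPM in those labelled E18 WT. The lowest DKO and the highest WT value were 15.3 and 15.1 CPM, so the separation was at the limit of the rule. Hps3, of a complex that sorts proteins to melanosomes and platelet granules, overlaps Cp on the opposite strand and was also higher in all DKO libraries, at 18.9 to 21.9 CPM in DKO and 13 to 17.6 CPM in WT. The counts used strand. The RNA helicase gene Dhx33 had the third largest separation among the higher genes, with 36.8 to 49.4 CPM in DKO and 21 to 30 CPM in WT. The neighbouring lipid transfer genes Sec14l3 and Sec14l4, 16.8 kb apart on chromosome 11, ranged from 5.43 to 72.6 and from 4.04 to 11.3 CPM in DKO, and from 1.03 to 5.3 and from 0.903 to 4.0 CPM in WT.

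Genes just outside the rule were close to genes just inside it. Zfp27, the last of the genes lower in DKO, reached 8.17 CPM in DKO and started at 8.18 CPM in WT. Ube2m, among genes of at least 5 CPM on average, reached 86.1 CPM in DKO and started at 85.9 CPM in WT. Membership also moved with the scaling of the libraries. Scaling by library size alone left 54 genes higher and 23 lower (70.1% higher, against 53.1%), of which 30 were among the 81. Scaling within protein-coding genes, without globin and mitochondrial genes, which was chosen after seeing the data, left 48 higher and 27 lower (64% higher), of which 34 were among the 81. Under all 4 scalings tried, 29 genes did not overlap, 11 higher and 18 lower. These 29 included Dcn, Bgn, Zdhhc9, Hba-a1, Bpgm, Krt5, Gm19439, Tlr13, Ikbkb and Dhx33, but neither Lum nor Alas2.

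**Figure D2:**
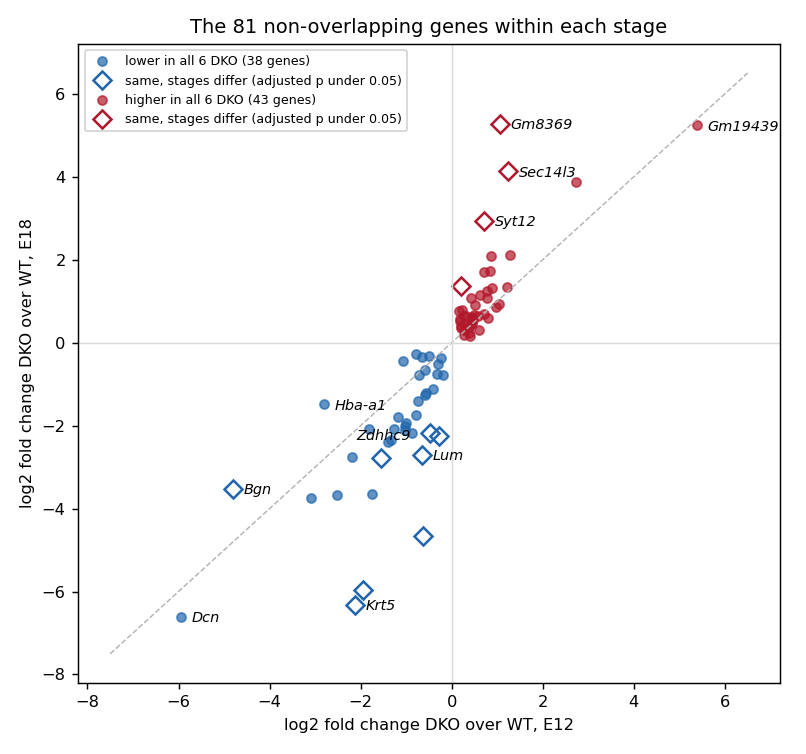
Each symbol is 1 of the 81 non-overlapping genes, with the log2 fold change of DKO over WT at E12 on the horizontal and at E18 on the vertical axis; open diamonds are the 12 genes whose change differed between the labelled stages. Most genes lie further from 0 at E18 than at E12, among them Lum and Krt5, while Bgn lies nearer to 0 at E18 and Dcn near the diagonal.

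The pooled contrast averaged stages that differed. A genotype by stage difference was called for 7600 of 18153 genes, 41.9%, and for 12 of the 81 non-overlapping genes, 4 higher and 8 lower in DKO. Being on the same side in every library limits how far the stages can differ, so that lower share is not a result about these genes. The median log2 fold change of the 38 lower genes was -0.93 at E12 and -2.04 at E18, and that of the 43 higher genes was 0.49 at E12 and 0.69 at E18. The DKO library nearest to WT was an E12 library for 36 of the 43 higher genes and 27 of the 38 lower genes. The WT library nearest to DKO was E12 WT 1 for 16 of the 43 and 11 of the 38. Among the 758 genes without overlap when E12 WT 1 was left out, 375 were higher and 383 lower in DKO, and all 5 calls remained. They included 80 of the 81. At a fixed scaling, leaving out a library cannot make separate ranges overlap, so that number is not a result about the 81. Without the 3 libraries labelled E18 WT, 423 genes did not overlap and 2 were called, Dcn and Bgn.

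Linkage to the targeted genes was described from positions in the files (GRCm38). Within 10 Mb on each side of Dcn, 2 of 78 other tested genes did not overlap (2.56%), against 3 of 732 on the rest of chromosome 10 (0.41%). They were Lum, whose start lies 47.3 kb beyond the end of Dcn, and 4930430F08Rik. Each of them lacked overlap in only 2 of the 4 scalings tried. 4930430F08Rik, at 100572274 to 100589259, had 5.33 to 7.9 CPM in DKO and 8.15 to 12.3 CPM in WT. Both lay within 5 Mb (2 of 41, 4.88%), and none of the window's genes was called. Scaling by library size alone gave 1.28% in the 10 Mb window, and 20 Mb on each side gave 0.662%. Without E12 WT 1 the 10 Mb share was 10%, against 4.05% of all tested genes. Atp2b1, the next tested gene after Lum, 1397 kb from Dcn, had a log2 fold change of 0.02, and Btg1, the nearest on the other side, had 0.13. The median absolute log2 fold change was 0.43 in the 10 Mb window and 0.31 on the rest of the chromosome. It was 0.37 against 0.32 with 5 Mb on each side, and the order turned with 20 Mb, at 0.27 against 0.36.

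Within 10 Mb of Bgn, 0 of 99 other tested genes lacked overlap, against 6 of 522 on the rest of the X chromosome (1.15%). Without E12 WT 1 the share within 10 Mb of Bgn was 2.91%. The median absolute log2 fold change was 0.37 in this window and 0.41 on the rest of the X chromosome. The nearest neighbours, Haus7 at 24.6 kb and Dusp9 at 143.5 kb, had log2 fold changes of -0.94 and -0.98 with overlapping values, Haus7 at 8.4 to 23 CPM in DKO and 17.7 to 54.6 CPM in WT. The X chromosome had the largest share of non-overlapping genes of any chromosome, 7 of 622 (1.13%). They were the target Bgn itself, Zdhhc9, Apex2 and Alas2 (lower) and Tlr13, Slc25a53 and Huwe1 (higher). Apex2 and Alas2 overlap each other on opposite strands, so they are not separate loci. Chromosomes 18 and 9 came next, at 0.899% and 0.891%. Chromosomes 13 and 17 had none, of 675 and 846 tested genes.

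In windows of 5 Mb with at least 10 tested genes, 385 of 447 held no non-overlapping gene, 49 held 1, 9 held 2 and 4 held 3. One window of 3 was on chromosome 9 from 80000001 to 85000000, where 3 of 16 tested genes were Hmgn3, Gm2065 and Gm29054. Hmgn3 encodes a nucleosome-binding protein, and the other 2 are transcripts of the opposite strand that overlap it. Hmgn3 had 1.99 to 4.96 CPM in DKO and 5.6 to 23.8 CPM in WT, so this window held 1 gene with its antisense neighbours and not separate genes.

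**Figure D3:**
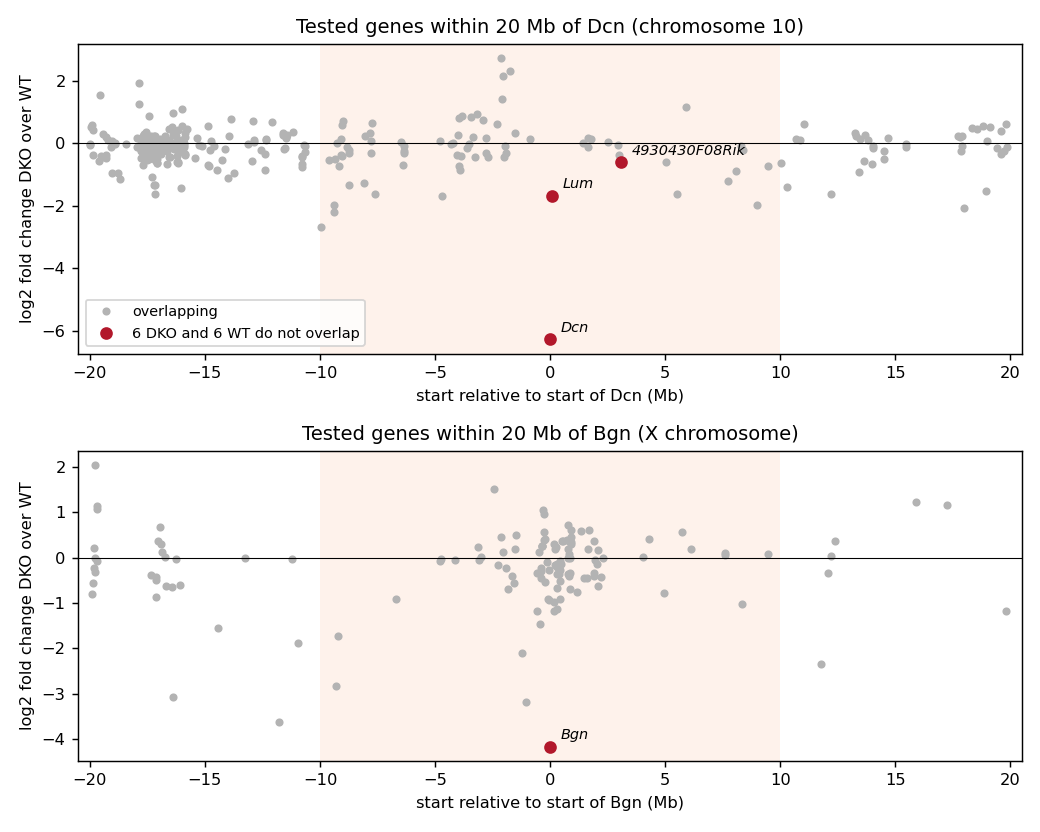
Points are tested genes within 20 Mb of Dcn (top) or Bgn (bottom), placed by distance from the target's start, with the log2 fold change of DKO over WT on the vertical axis and the 10 Mb windows shaded. Red points, whose 6 DKO and 6 WT libraries do not overlap, are Dcn, Lum and 4930430F08Rik near Dcn, and Bgn alone near Bgn.

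Strain background was described through genes that are on in some libraries and near 0 in others. No gene of the 48795 in the table was below 0.2 CPM in all 6 libraries of one genotype and at least 1 CPM in all 6 of the other, in either direction, and looser and stricter limits also gave 0. None of 20 tested genes of a list known to differ between inbred strains was called or lacked overlap. Over all tested genes 0.0275% were called and 0.446% lacked overlap, so a list of 20 is too short to show a lower share. Within that list, Trim12a, an antiviral gene of a cluster whose copies vary among strains, followed neither genotype nor stage. It had 0, 0 and 4.29 CPM in the E12 DKO libraries, 0.055, 14.8 and 20.3 CPM in the E18 DKO libraries, 11.1, 0.178 and 0.118 CPM in the E12 WT libraries, and 9.35, 6.68 and 15.4 CPM in those labelled E18 WT. Its cluster neighbour Trim30d was above 1 CPM in the same 7 libraries and below 0.2 CPM in the other 5.

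The 2 WT groups differed from each other in this way, although both are labelled C3H. At the same limits, chosen for pairs of groups after the values were seen, 36 genes (0.0738% of the table) were on in every E12 WT library and off in every library labelled E18 WT, and 2 were the reverse. Of the 36, 23 were pseudogenes (63.9%), against 2.23% of the 17470 genes that reached 1 CPM in any library. Processed pseudogenes are retrotransposed copies of genes, and inbred strains differ in which copies they carry. Reads of a copy that also match its parent gene can be lost, so the levels are uncertain. The 36 lay on 16 chromosomes, and 0 of them lacked overlap between the genotypes. That 0 is nearly fixed by the rule, which makes the WT values of each run from below 0.2 to at least 1 CPM. Between the 2 DKO groups, 92 genes were on at E12 and off at E18 and 149 the reverse, of which 3 and 6 were pseudogenes. Across genotypes the share of pseudogenes varied between pairs of groups. They made up 11 of 18 genes on in E12 DKO and off in E18 WT, 5 of 6 off in E12 DKO and on in E12 WT, and 18 of 117 on in E18 DKO and off in E18 WT. In the other pairs across genotypes with any gene, they made up 3 of 44 on in E18 DKO and off in E12 WT, 5 of 43 off in E18 DKO and on in E12 WT, 2 of 87 off in E18 DKO and on in E18 WT, and 0 of 1 off in E12 DKO and on in E18 WT.

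Eno1b (chromosome 18, 48045335 to 48048378), a second copy of the enolase 1 gene, had 16.4, 16.6 and 13.1 CPM in the E12 DKO libraries and 15.5, 18.1 and 9.53 CPM in the E18 DKO libraries. It had 13.8, 60.8 and 35.1 CPM in the E12 WT libraries and 0.0754, 0.117 and 0.123 CPM in those labelled E18 WT. The reverse held for the pseudogene Gm9855 (chromosome 10, 42054113 to 42055306), at 0 CPM in all 6 DKO libraries, with 3.13, 4.99 and 1.18 CPM across E12 WT libraries and 0, 0 and 0.041 CPM across those labelled E18 WT. Gm9855 and Gm15920 were the 2 of the 36 that were off in all 6 DKO libraries, and 7 were on in all 6.

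For 21 of the 36, some DKO libraries were on and others off. Within the E12 DKO group this held for 11 genes and within the E18 DKO group for 13. Col6a5, a collagen VI chain, had 9.07, 6.54 and 9.91 CPM in the E12 DKO libraries, but 12.0, 0.0426 and 12.0 CPM in the E18 DKO libraries. It had 9.34, 6.74 and 5.59 CPM in the E12 WT libraries and at most 0.0586 CPM in those labelled E18 WT. Ifi202b, an interferon-inducible gene whose expression is known to differ between inbred strains, was on in E12 DKO 2 (3.05 CPM) and E18 DKO 2 (18.9 CPM) and at or below 0.218 CPM in the other 4 DKO libraries. It had 8.98, 2.6 and 6.65 CPM in the E12 WT libraries and at most 0.0821 CPM in those labelled E18 WT. Rpl15-ps2 was on in E18 DKO 1 and 3, at 6.38 and 11.8 CPM, and at most 0.0853 CPM in the other DKO libraries. Ccdc190 and its neighbour Gm15852 on chromosome 1 were on in E12 DKO 2 alone among DKO libraries, at 3.25 and 2.88 CPM.

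Each DKO library had a mixture. Of the 36 genes, 24, 23 and 20 were on in E12 DKO 1, 2 and 3, and 19, 21 and 23 in E18 DKO 1, 2 and 3, while 9, 10, 14, 12, 14 and 6 were off in the same order. Genes that reached 2 CPM in 1 library of a group and stayed below 0.2 CPM in another numbered 66 in E12 DKO and 109 in E18 DKO, of which 16.7% and 18.3% were pseudogenes. They numbered 254 in E12 WT and 134 in E18 WT, of which 4.72% and 3.73% were pseudogenes. Wdfy1, an endosomal adaptor on the strain list, had 49.2 to 88.1 CPM in DKO libraries, 50.6 to 71.4 CPM in the E12 WT libraries and 18.4 to 25.0 CPM in those labelled E18 WT. Stage, tissue make-up and strain background cannot be told apart for these genes.

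**Figure D4:**
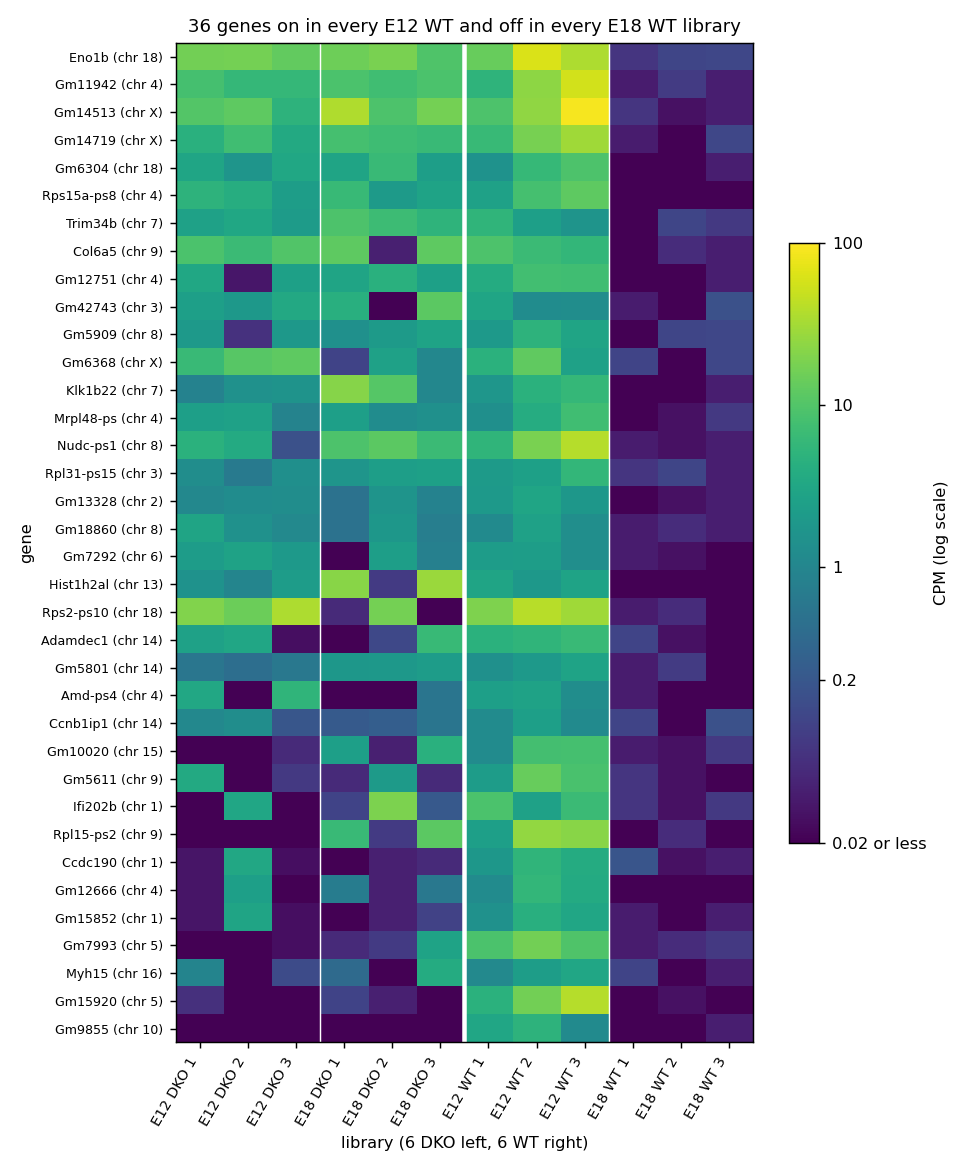
Rows are the 36 genes on in all E12 WT and off in all E18 WT libraries, columns are the 12 libraries with DKO to the left of WT, and colour gives CPM on a log scale. The E12 WT columns are at 1 CPM or more throughout and the E18 WT columns below 0.2 CPM, by the rule, whereas the DKO columns are mixed, with 7 genes on in all 6, 2 off in all 6 and 21 on in some and off in others.

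Markers of other cell types were read for the same libraries. Summed trophoblast and decidua markers were 78.5 to 295 CPM in DKO and 86.2 to 1330 CPM in WT, with the highest value in E18 WT 3. Summed neutrophil markers were 193 to 279 CPM in the E18 DKO libraries, 2.99 to 6.64 CPM in the E12 DKO libraries and 93.4 CPM in E12 WT 1, and 4.15 to 11.1 CPM in the other WT libraries. Summed amnion epithelial markers were 2380 to 6890 CPM in DKO and 2500 to 5280 CPM in WT, and those of yolk sac endoderm were 78700 to 153000 CPM in DKO and 52300 to 157000 CPM in WT. With both stages pooled, all of these overlapped between the genotypes. Amnion epithelial sums were apart within each stage, lower in DKO at E12 and higher at E18. The part of these markers in the results was not tested.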

How the data were processed

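RNA of fetal membranes was sequenced as 12 libraries. Per the submitters' processing notes, the tools included Trimmomatic 0.36, STAR 2.4.2a and Subread 1.5.0, with genome build GRCm38. Per the file headers, featureCounts 1.5.0 assigned reads to genes of Ensembl release 86 with strand option 2. The deposited values are raw counts, not normalized, per the file headers. The series table held 48795 genes. The files of 11 libraries equalled 1 column of it, and the counts of E12 DKO 1 came from that table. The libraries titled E18 WT 1, 2 and 3 equalled its columns numbered 2, 3 and 4, and are numbered by their titles. Biotypes came from GENCODE M21 by gene ID (48435 matched), and coordinates are those of the files.

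filterByExpr on the 4 groups left 18153 genes. TMM factors and edgeR's quasi-likelihood test (edgeR 4.0.16, R 4.3.3) were used with labelled stage as covariate, 9 residual degrees of freedom and a common biological coefficient of variation of 0.537, and p-values were adjusted by Benjamini-Hochberg over the whole table, with a threshold of 0.05. Stage differences came from a fit of the 4 group means. CPM are counts per 1000000 counts of the TMM-scaled library. Non-overlap compares the lowest and highest CPM of 6 and 6 libraries, and separation is log2 of their ratio after adding 0.1 CPM. Alternatives used DESeq2 1.42.0 and limma 3.58.1. The procedure was tested on simulated data. No replicate block was used. The chi-square per gene between replicates was at least 16.3, so no library was counted as a copy.

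The members, gene lists and comparisons were chosen with earlier results of these data known. The rule for named genes took Bgn and Dcn, called genes without overlap by separation and size, non-overlapping genes within 10 Mb of the targets and non-overlapping members of the gene lists. Some genes that passed this rule are not reported here. Other genes named, including all on and off genes between pairs of groups, were chosen after their values were seen.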

Additional observations from a re-analysis of the deposited data

Results flagged for a closer look

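In 2 genes, 1 library stood far from the others of its genotype by Dixon's criterion on log2 CPM, applied to the 16 genes followed through the alternatives, in 6 DKO and in 6 WT libraries each. Chance flags about 1 group in 20. Samhd1 was highest in E18 DKO 3, at 173 CPM against 108 to 126 CPM in the other DKO libraries, and that gap was 0.679 of the DKO range. Dhx33 was lowest in E12 WT 3, at 21 CPM against 26.5 to 30.0 CPM in the other WT libraries, and that gap was 0.653 of the WT range.

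For 4 of these genes the change between DKO and WT differed between the labelled stages in edgeR's interaction test. The log2 fold change at E18 minus that at E12 was -1.23 for Zdhhc9, 1.29 for Bgn, -2.04 for Lum and -4.19 for Krt5. The embryonic beta-globin share of the libraries labelled E18 WT and of E12 WT 1 goes against their labels, and its part in these differences was not tested.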

How the results depend on the processing

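Dcn and Bgn kept their direction and their call under every alternative run. None of the 16 genes followed changed direction. Of these, 11 were not called; all 11 were called when the within-stage differences were averaged, without E12 WT 1 and, chosen after seeing the data, without the libraries labelled E12 WT, and 10 of the 10 with a value were called by DESeq2. The number of genes called, 5, was 3 with library size alone, 422 with DESeq2, 3 with limma voom, 2 without the stage covariate, 1882 when the within-stage differences were averaged, 2 with the embryonic globin share as covariate and 3 against a 2-fold threshold. It was 2 without the libraries labelled E18 WT, 24 without the E18 DKO libraries and, chosen after seeing the data, 1221 without E12 WT 1 and E18 WT 3 and 9526 without the libraries labelled E12 WT. In the same 4 cases the non-overlapping genes numbered 423, 1987, 1043 and 1667. Leaving out 1 library at a time gave 3 to 2473 calls and 92 to 758 non-overlapping genes. Smaller groups overlap less often by construction, and the cause of the changed calls was not tested. The share of non-overlapping genes near Dcn, 2.56%, was 1.28% with library size alone, 4.88% within 5 Mb and 0.662% within 20 Mb, 2.5% to 10% with 1 library left out, and 0% were called. Near Bgn it was 1.01% with library size alone and 0% to 2.91% with 1 library left out. The stage difference was called for 6198 to 8528 genes with 1 library left out. Same-numbered libraries of different groups did not deviate together (correlations of -0.176 to 0.288, over 0.1 in 5 of 18 pairs), and a replicate block gave 4 calls, without Zdhhc9, and 7294 stage differences. At these depths, genes below 0.2 CPM rest on a handful of counts per library.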
